A study of Mus musculus with 60 samples.

Results

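Decorin, encoded by Dcn, was used to rank the cortex-like brain libraries of a study of mouse huntingtin, and the 8 libraries with the highest level were set beside the 8 with the lowest. The 16 libraries were chosen on a measured value. A library was called cortex-like where its FPKM (fragments per length of transcript and depth of library) of Slc17a7, the vesicular glutamate transporter of cortical excitatory neurons, was above 100, which held for 30 of the 60 libraries. FPKM values were divided by a median-of-ratios factor for each library, and these scaled FPKM values are the levels given throughout. The 8 libraries with the highest scaled Dcn are called Dcn-high, the 8 with the lowest Dcn-low, and the 14 between them the other cortex-like libraries. The question was whether Dcn, a leptomeningeal transcript, ranked these libraries by their share of pial and vascular material, with Ptgds and Igf2 as the other markers.

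The study sequenced total RNA, after depletion of ribosomal RNA, from cortex and striatum of 3-month-old male and female c57BL-6N mice, with 6 libraries in each of 10 labelled groups. Mice of the Δ12 line carried an Htt allele with a deletion inside exon 12, made by CRISPR with a repair template, and were labelled +/+, Δ12/+ or Δ12/Δ12. Mice of the KO line, labelled +/+ or KO/+, came from a founder in which an imprecise deletion had removed the splice donor. All 30 cortex-like libraries were labelled as the Δ12 line: 12 as +/+, 12 as Δ12/+ and 6, all male, as Δ12/Δ12. The other 30 libraries, called striatum-like, were labelled KO line in 24 cases and Δ12 line, Δ12/Δ12 female, in 6. Line and kind of library therefore cannot be told apart beyond those 6. The mice carried the same numbers in both tissues, so that the 30 cortex-like libraries stood for 15 labelled mice and the 30 striatum-like libraries for 15. Libraries were treated as independent in every test across both labelled tissues, and where 2 libraries came from 1 mouse those p-values are too small.

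Regional and sex-linked transcripts went against part of the labels. Of the 30 cortex-like libraries, 15 were labelled cortex and 15 striatum, although their scaled Drd2, the dopamine receptor of striatal projection neurons, lay between 0 and 15.9, against 34.8 to 71.3 in the striatum-like libraries. The sex-linked transcript, Xist or Ddx3y, went with the labelled sex in 13 of 30 cortex-like libraries. Each library is therefore named below as the library labelled so, and any comparison of labels holds only for the labels. The same is true of 2 libraries taken as 1 labelled mouse. One library, labelled cortex Δ12-line +/+ female 1, stood apart with 14912 entries above 0, and the one labelled cortex Δ12-line +/+ male 1 had 16403, against a median of 20645 over the 30. Both were in the Dcn-low set, in which 10.7% and 6.75% of the tested entries were listed at 0 in these libraries.

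The leptomeninges, the pia and arachnoid mater, are thin sheets of fibroblasts on the brain surface that follow arteries into the tissue. Their fibroblasts make collagens and small leucine-rich proteoglycans such as decorin, which binds collagen fibrils and growth factors. They also make lipocalin-type prostaglandin D synthase, encoded by Ptgds, which oligodendrocytes and choroid plexus express as well, and insulin-like growth factor 2, encoded by the imprinted gene Igf2, which is also made by choroid plexus. In dissected tissue, more cells of a type and more RNA per cell cannot be told apart.

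Dcn, on chromosome 10 from 97479500 to 97518162 (GRCm38), was at 0.922 in the lowest of the 30 cortex-like libraries, at 4.39 in the median one and at 7.25 in the highest. These values chose the sets and are a description. The Dcn-low libraries ranged from 0.922 through a median of 3.13 to 3.78, and the Dcn-high libraries from 5.10 through 5.76 to 7.25. The ranking had no gap at its limits: the first library left out of the Dcn-low set was at 3.78, and the last one below the Dcn-high set was at 5.08. The deposited intervals of Dcn, if they span 2 SD on each side, corresponded to between 27.1 and 248 fragments for the gene in a library. They overlapped in 2 of the 64 pairs of a Dcn-high with a Dcn-low library. The SD of log2 Dcn over the 30 libraries was 0.54, against 0.14 from counting alone on those intervals. Without the lowest library it was 0.36 over 29 libraries, against 0.13. The parts of mice, dissections and libraries in that spread were not tested.

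**Figure D1:**
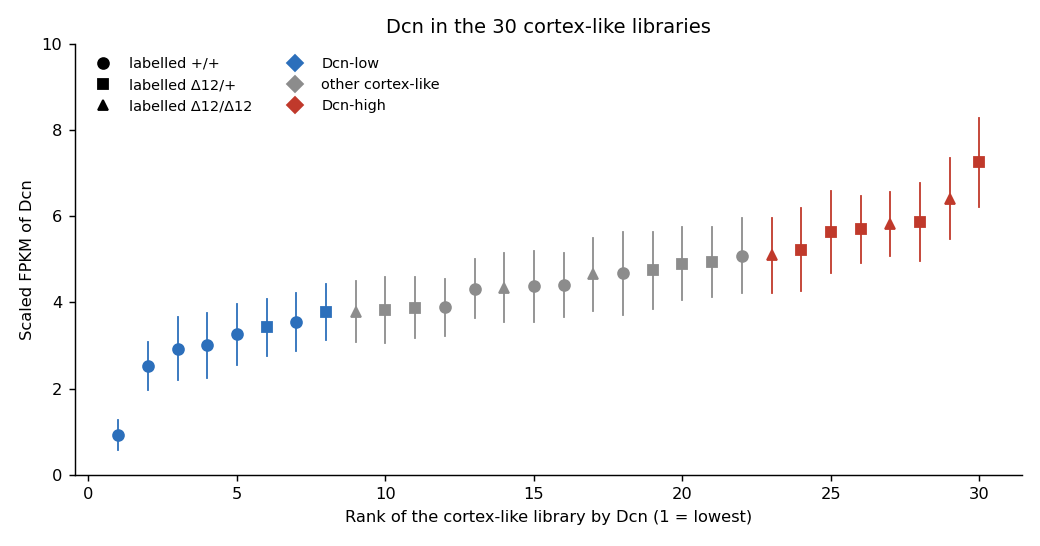
Scaled FPKM of Dcn (vertical axis) in the 30 cortex-like libraries, ordered by level (horizontal axis, rank). Points are libraries, lines the deposited intervals, colours the sets and shapes the labelled genotypes; the lowest library is at 0.922 and the highest at 7.25, with no gap at either limit of the sets.

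The libraries with more Dcn did not hold more of the other leptomeningeal transcripts. Of the 24 other markers in the list, 19 passed the filter of a mean scaled FPKM of at least 0.5 over the 16 libraries, and of these 8 were higher and 11 lower in the Dcn-high set. The median difference was -0.04 on the log2 scale, against 0.02 over all 15176 genes. A gene was called where its 8 and 8 values did not overlap. Of all genes, 0.0132% were called higher and 0% lower, and 0 of the 19 markers were called in either direction. Because the sets were chosen by Dcn in these libraries, no test was made on this contrast.

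Ptgds, on chromosome 2 from 25466709 to 25470046, was at 387 in the lowest, 450 in the median and 660 in the highest Dcn-high library. In the Dcn-low libraries its lowest, median and highest levels were 364, 463 and 637. The sets covered nearly the same range, with means of 477 ± 97.3 and 467 ± 83.5 (SD, n = 8 each) and a log2 difference of 0.02. The library with the least Dcn of all held the most Ptgds in the Dcn-low set, 637.

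Igf2, on chromosome 7 from 142650766 to 142666816, ranged from 14.7 through 19.1 to 21.1 in the Dcn-high set. It ranged from 12.7 through 19.2 to 32.9 in the Dcn-low set. Both the lowest and the highest Igf2 of the 16 were thus in Dcn-low libraries. The log2 difference was -0.13, between -0.23 without the library labelled cortex +/+ female 2 and -0.03 without cortex +/+ male 1, and the means were 18.6 ± 2.01 in the Dcn-high and 21.4 ± 7.47 in the Dcn-low set (SD, n = 8 each).

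The structural and transport markers of the meninges were spread in the same way. Matrix Gla protein, encoded by Mgp, an inhibitor of calcification, was at 18.3 to 50.5 in Dcn-high and at 14.4 to 45.8 in Dcn-low libraries, with medians of 23.6 and 28.8. The GABA and taurine transporter gene Slc6a13 was at 2.00 to 4.95 and at 1.83 to 7.98, with medians of 4.29 and 3.25. The α2 chain of type I collagen, Col1a2, was at 1.55 to 4.74 and at 1.35 to 4.37. The ranges of the sets overlapped in each of the 3 genes, and the highest Slc6a13 was in the Dcn-low set.

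Gjb2, encoding the gap junction protein connexin 26 of meningeal fibroblasts, had the largest difference of the list, 0.36, at a low level. It was at 0.443 to 0.853 in the Dcn-high and at 0 to 0.826 in the Dcn-low libraries, with medians of 0.768 and 0.458. The value of 0 was that of the library labelled cortex Δ12-line +/+ female 1, and the ranges overlapped. The sulfate transporter gene Slc13a4 differed by 0.25 and Col1a1 by -0.28, the other end of the list. The library labelled cortex Δ12-line +/+ female 1 listed 3 of the 19 markers at 0 and the one labelled male 1 of that group 5.

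**Figure D2:**
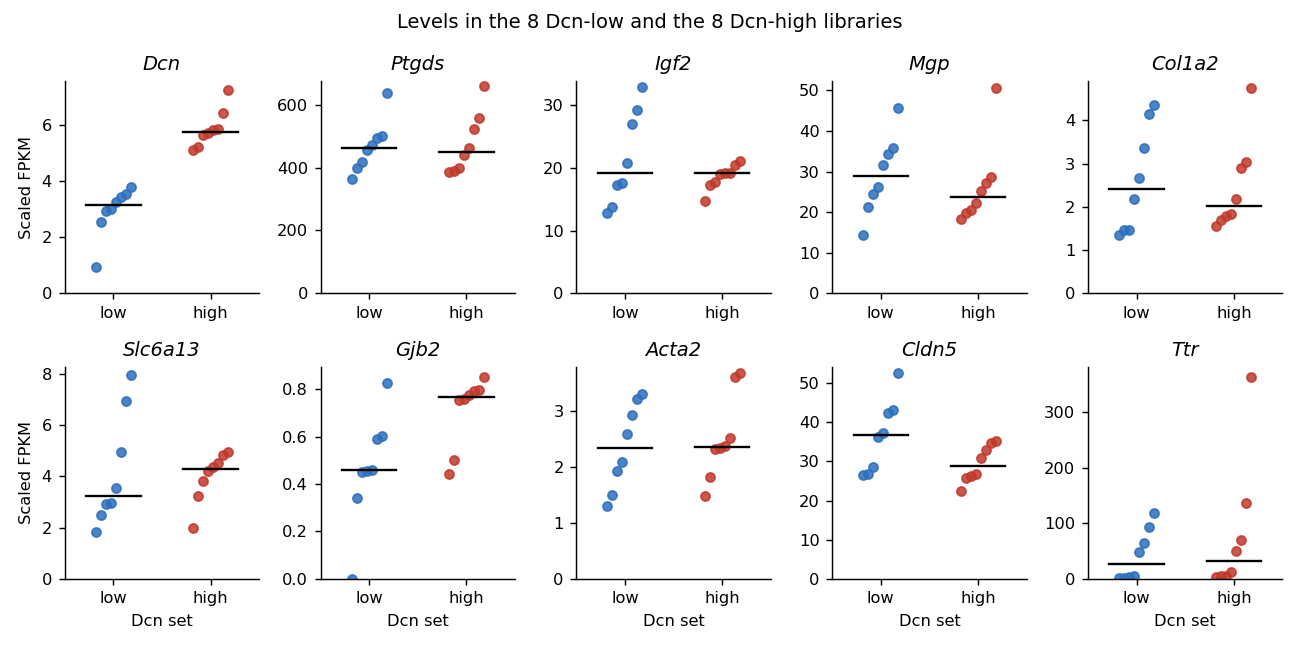
Scaled FPKM (vertical axis, from 0) of 10 genes in the 8 Dcn-low and 8 Dcn-high libraries (horizontal axis); points are libraries and bars medians. Dcn separates the sets because it chose them, and the other 9 genes overlap between them, as with the Ptgds medians of 463 and 450.

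The gene families around decorin did not separate the sets either. Of 13 other small leucine-rich proteoglycan genes 4 passed the filter, and 1 was higher and 3 lower, with a median difference of -0.05. Among them Omd, encoding osteomodulin, differed by 0.33 and Bgn, encoding biglycan, by -0.08. Of the fibrillar and associated collagens 9 of 15 passed, with 3 higher, 6 lower and a median of -0.10. Of the basement membrane genes 10 of 15 passed, with 6 higher, 4 lower and a median of 0.09. Within that list the type IV collagen gene Col4a1 was at -0.67 and the laminin α4 gene Lama4 at 0.46, so its members did not move together.

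The pathways of the other markers showed the same pattern. In the IGF axis 11 of 12 genes passed, 5 higher and 6 lower, with a median of -0.10. The binding protein gene Igfbp7 at 0.21 and the receptor gene Igf2r at -0.17 were its extremes. In the prostaglandin D pathway 10 of 12 passed, 6 higher and 4 lower, with a median of 0.05, and the receptor genes Ptgdr and Ptgdr2 were below the filter. Retinoid handling had 6 higher and 5 lower of 11, with a median of 0.07, although its members reached 0.74 for Crabp1, a retinoic acid binding protein, and -0.74 for the receptor gene Rara. Aldh1a2, the retinoic acid synthesising enzyme of the meninges, differed by 0.13. The meningeal solute carriers (5 higher and 2 lower, median 0.02), the BMP and WNT ligands (6 and 3, median 0.10) and the meningeal transcription factors (2 and 5, median -0.12) held no called gene. In the last list Foxc1, Foxd1 and Tbx18 were below the filter and Foxc2 was not analysed here.

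Vascular and blood lists differed in direction. Of the 15 endothelial markers 4 were higher and 11 lower, with a median of -0.08. Cldn5, the tight junction gene of the blood-brain barrier, was at 22.6 to 35.2 in the Dcn-high and at 26.6 to 52.7 in the Dcn-low libraries, a difference of -0.29. Of the pericyte markers 4 were higher and 5 lower, with a median of -0.03 and a range of -0.25 to 0.17, and the pericyte gene Rgs5 differed by 0.01. Of the smooth muscle markers 4 of 8 passed, 3 higher and 1 lower, with a median of 0.11. They ranged from -0.03 to 0.325, with Acta2 at 0.09 and Tagln at 0.13. The red blood cell genes had a median of -0.18, with 1 of 5 higher. Border macrophage markers (5 of 8 passed) had a median of 0.08 and microglia markers of -0.02. Over all cortex-like libraries the smooth muscle markers had the highest median correlation with Dcn of any list, 0.39. The endothelial list was at -0.12 and the pericyte list at -0.003. These correlations are a description and include the library with the lowest Dcn.

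Other tissue components were compared in the same way. Of the 8 choroid plexus markers that passed, 6 were higher, with a median of 0.23. Ttr, the transthyretin of choroid plexus, differed by 0.70, but ran from 2.73 to 364 in the Dcn-high and from 1.36 to 118 in the Dcn-low libraries. Of the ependymal markers 5 of 6 passed and 4 were higher, with a median of 0.46, led by Ccdc153 at 0.55. All 8 striatal markers were lower in the mean, with a median of -0.21. A Dcn-high library, male 3 of those labelled striatum Δ12/+, nevertheless had the highest Ttr of the 16 and the highest Ppp1r1b, a marker of striatal projection neurons, at 206. Medians of the astrocyte, oligodendrocyte, layer 1, layer 2 to 4, deep layer, cortical excitatory and immediate early lists lay between -0.12 and 0.10. Single members of these lists ran from -0.45 in the immediate early to 0.75 in the layer 2 to 4 list. None of the 26 lists held a called gene.

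**Figure D3:**
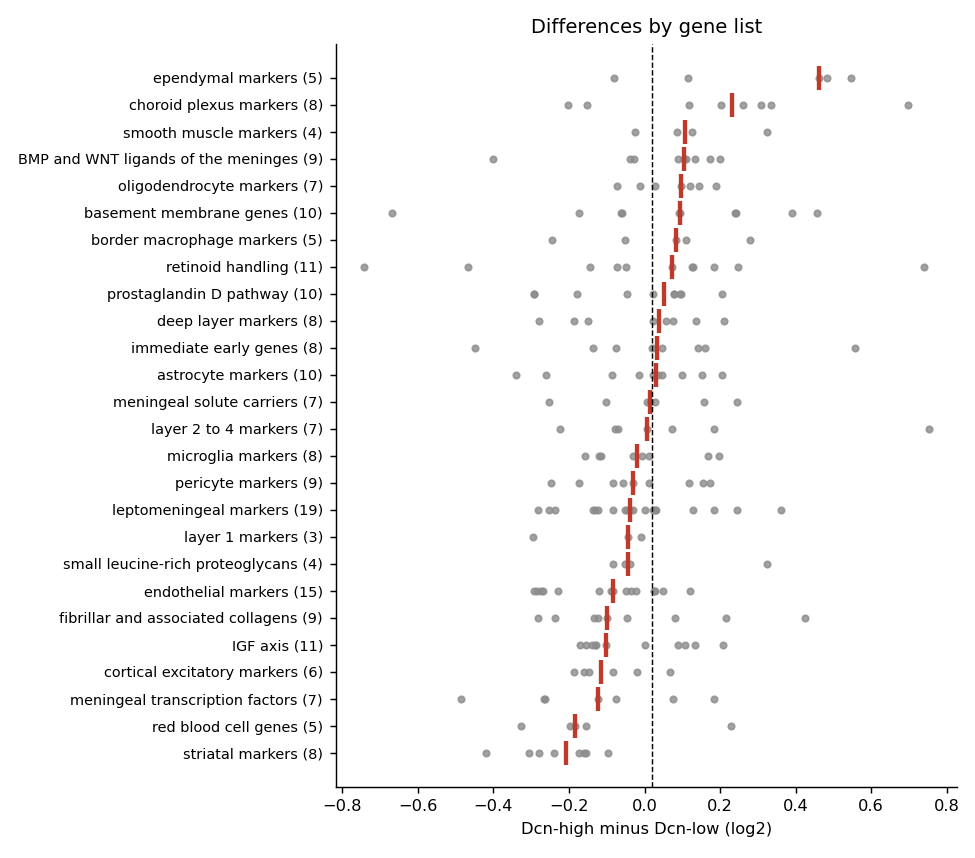
Mean log2 level in Dcn-high minus Dcn-low libraries (horizontal axis) for each gene list (vertical axis, with the number of members that passed the filter). Grey points are genes, red bars medians, and the dashed line is the median of 0.02 over all genes; list medians run from -0.21 for striatal to 0.46 for ependymal markers.

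Besides Dcn, 2 of 15176 genes did not overlap between the sets, both higher. Rmnd1, required for mitochondrial translation, was at 6.85 to 9.71 in the Dcn-high and at 3.58 to 6.61 in the Dcn-low libraries, a difference of 0.54. It lies on chromosome 10 from 4401915 to 4432388. Gm9115, a predicted gene on the X chromosome, was at 1.66 to 2.73 and at 1.21 to 1.63, a difference of 0.48. In the libraries that the sets did not use, neither slope of Rmnd1 on Dcn passed. With limma it was -0.20 ± 0.14 (SE, adjusted p = 0.614) in the 30 striatum-like and 0.35 ± 0.65 (adjusted p = 1) in the 14 other cortex-like libraries.

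None of the 15 genes most like Dcn was in the list of leptomeningeal markers. Over the 30 cortex-like libraries and 13459 genes with a mean of at least 1, the highest Pearson correlations with Dcn on the log2 scale were those of 1700049G17Rik (0.86), Cmss1 (0.84), the endoplasmic reticulum peroxidase gene Gpx8 (0.82), Tctex1d2 (0.81), the U1 small nuclear ribonucleoprotein gene Snrpc (0.81), Rnd3 (0.81) and the cyclophilin gene Ppie (0.81). They were followed by Slc29a1, Ring1, Trmt10b, Rpf1, Gm13363, Prr13, G0s2 and Gm7879, at 0.78 to 0.76. These values are a description. All 30 points share 1 scaling, and much of the likeness came from 1 library: without the lowest library the first 3 fell to 0.68, 0.62 and 0.58. Ptgds was at -0.09 over 30 and at 0.19 over 29 libraries, and Igf2 at -0.39 and -0.20. Ptgds ranked 8977 and Igf2 12373 of the 13459 genes. No leptomeningeal marker with a mean of at least 1 was above 0.37 over the 30 libraries. Of those below that mean Gjb2 was highest, at 0.64, and without the lowest library it was at 0.36.

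Among themselves the markers varied together in part. For the 9 markers with a mean of at least 1, correlations with Dcn over the 30 cortex-like libraries ran from -0.43 to 0.37 with a median of -0.08. Over 29, without the lowest library, they ran from -0.24 to 0.19 with a median of -0.03. Over the 30 cortex-like libraries the 36 pairs without Dcn had a median of 0.10 and 30 were positive. The highest was that of Ptgds with Mgp, 0.68, followed by Col1a2 with Slc6a13, 0.56. Over the 30 striatum-like libraries all 9 correlations with Dcn were positive, from 0.17 to 0.48, and the 36 pairs without Dcn had a median of 0.21.

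Libraries that the sets did not use gave the tests of the same relations. In the 30 striatum-like libraries Dcn was lower, at 0.974 to 3.62 with a median of 1.46, and Ptgds was at 119 to 319. There, 17 of the 24 other leptomeningeal markers passed the filter and all 17 had a positive slope on log2 Dcn, with a median of 0.50 against -0.01 over all 15958 genes. The fit pooled libraries labelled KO-line +/+, KO/+ and Δ12/Δ12 without a term for these labels, and their part in the slopes was not tested. In limma 0.00627% of all genes were called higher and 0% lower at an adjusted p of 0.05, and 0 of the 17 were called. At an unadjusted p under 0.05, 9 of the 17 had a positive and 0 a negative slope. Of all 15958 genes, 921 had a positive and 870 a negative slope at that threshold. The slope of Ptgds was 0.55 ± 0.18 (SE, adjusted p = 0.312), that of Igf2 0.54 ± 0.40 (adjusted p = 0.62), and that of Col1a2 0.50 ± 0.18 (adjusted p = 0.341). The smallest adjusted p of the list were those of Fmod, the fibromodulin gene, at 0.65 ± 0.14 (0.116), and of Gjb2 at 0.60 ± 0.14 (0.135). Without the library of the highest Dcn, labelled striatum KO-line +/+ male 1, the median slope of the list was 0.34, with 16 of 16 positive.

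Other lists moved beside these markers in the striatum-like libraries. The choroid plexus markers had 12 of 12 positive slopes with a median of 0.83, the meningeal solute carriers 7 of 7 with 0.32, and the oligodendrocyte markers 7 of 7 with 0.27. The cortical excitatory markers had 0 of 6 positive with -0.95, the striatal markers 0 of 8 with -0.22 and the red blood cell genes 0 of 5 with -0.35. The endothelial list had 12 of 15 positive with 0.11. With log2 Ttr and log2 Slc17a7 as covariates the leptomeningeal list kept 16 of 17 positive slopes, with a median of 0.36. The slope of Igf2 was then -0.03. Without those covariates, too, none of these lists held a gene past the threshold.

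A single gene passed there: Laptm4a, which encodes a lysosomal membrane protein and is in no list, rose with Dcn by 0.41 ± 0.07 per log2 unit (limma, adjusted p = 0.0174). At an unadjusted p under 0.05, 921 genes had a positive and 870 a negative slope. Without the library with the highest Dcn its slope was 0.37 (adjusted p = 0.415), and with the covariates for Ttr and Slc17a7 0.36 (adjusted p = 0.0709). Its level in the 16 cortex-like libraries was 89.4 to 138 in the Dcn-high and 71.8 to 122 in the Dcn-low set.

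In the 14 other cortex-like libraries, whose range of Dcn was cut short by the choice of the sets, 14 of 19 leptomeningeal markers had a positive and 5 a negative slope, with a median of 0.26. Of all 15113 genes 0% were called in either direction, with 201 positive and 242 negative at an unadjusted p under 0.05. The slope of Ptgds was 0.26 ± 0.61 and that of Igf2 -0.85 ± 0.61 (adjusted p = 1 for both). The median SE of a slope was 0.48 there against 0.12 in the striatum-like libraries, so slopes of the size seen in the latter were not detectable. A test of the difference between the slopes in the 2 kinds of library, chosen after seeing the data, gave -0.28 ± 0.64 for Ptgds (adjusted p = 0.998), and no marker of the list passed (smallest adjusted p = 0.853).

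**Figure D4:**
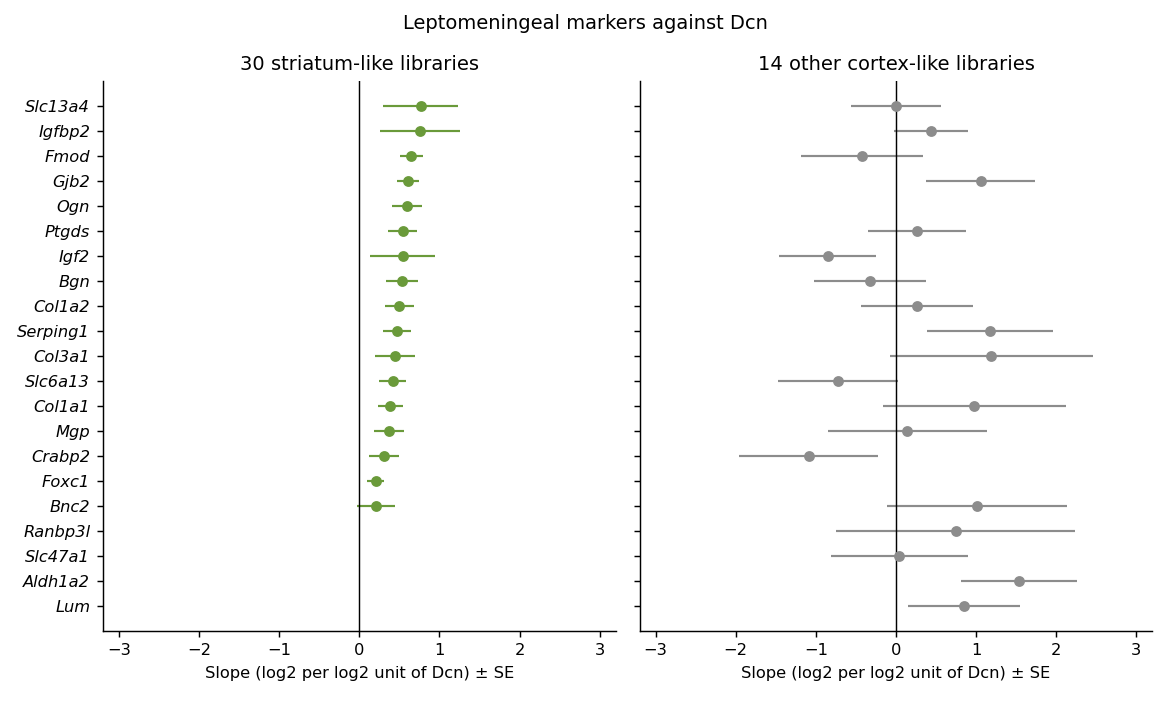
Slopes of the leptomeningeal markers on log2 Dcn (horizontal axis, log2 per log2 unit, with the SE as bars) in the 30 striatum-like (left) and the 14 other cortex-like libraries (right). A gene without a point was below the filter; all 17 slopes on the left are above 0, and on the right 14 of 19 are.

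The correlations of Ptgds and Igf2 with Dcn were computed as 4 relations. In the striatum-like libraries Ptgds had a Pearson r of 0.482 (permutation p = 0.00778, adjusted p = 0.0311 over the 4, n = 30) and a Spearman rho of 0.376 (permutation p = 0.0416, adjusted p = 0.167). Without the 2 libraries farthest from the median of Dcn r was 0.260 (n = 28), over a shorter range of Dcn. The difference between these 2 values of r was not tested. Igf2 had an r of 0.235 (permutation p = 0.211, adjusted p = 0.285) and a rho of 0.228. In the other cortex-like libraries r was 0.118 for Ptgds (permutation p = 0.684, n = 14) and -0.356 for Igf2 (permutation p = 0.214, n = 14).

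Labels, which the rule did not use, differed between the sets for genotype. Libraries labelled +/+ were 6 of the 8 Dcn-low and 0 of the 8 Dcn-high libraries (Fisher's exact test, two-sided, p = 0.007, adjusted p = 0.021 over 3 labels). Those 6 libraries stood for 5 labelled mice. The 8 Dcn-low libraries stood for 7 labelled mice and the 8 Dcn-high libraries for 7. In each set 1 labelled mouse gave 2 libraries, so where the labels hold the test counts a mouse more than once. In the Dcn-high set this was the mouse labelled Δ12/+ male 3, whose 2 libraries carried opposite sex-linked transcripts. Xist and Ddx3y were at 0.0146 and 17.8 in the library labelled cortex and at 17.9 and 0 in the one labelled striatum. With the libraries ranked again without those labelled cortex Δ12-line +/+ female 1 and male 1, the 2 with the fewest entries above 0, the count was 4 of 8 against 0 of 8 (Fisher's exact p = 0.0769). With 10 libraries in each set it was 6 of 10 against 1 of 10 (Fisher's exact p = 0.0573). Labelled cortex was given to 6 of 8 Dcn-low and 4 of 8 Dcn-high libraries, and labelled female to 4 of 8 and 2 of 8 (Fisher's exact, adjusted p = 0.608 for both). The sex-linked transcript was Xist in 5 of the 8 Dcn-low and 4 of the 8 Dcn-high libraries.

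By labelled group, Dcn was lowest in the 6 libraries labelled cortex +/+, at 0.922 to 4.37 with a median of 2.96, of which 5 were in the Dcn-low set. In the 6 labelled cortex Δ12/+ it was at 3.43 to 5.87 with a median of 4.39, and in the 3 male libraries labelled cortex Δ12/Δ12 at 5.10 to 6.41, all in the Dcn-high set. Those labelled striatum +/+ were at 3.55 to 5.08, those labelled striatum Δ12/+ at 3.78 to 7.25 and the 3 labelled striatum Δ12/Δ12 at 3.78 to 4.65. The 3 labelled cortex Δ12/Δ12 were above every library labelled +/+ of either tissue and above the 3 labelled striatum Δ12/Δ12. The margin to those labelled +/+ was small. The lowest of the 3, male 2, was at 5.10 with a deposited interval of 4.23 to 5.96. The library labelled striatum +/+ female 3 was at 5.08 with one of 4.22 to 5.95. The other pairs of groups overlapped, and with groups chosen for display no test was made.

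The comparison of Δ12/+ with +/+ in the study's own design did not pass for Dcn. In the 12 libraries labelled cortex, Dcn was higher in Δ12/+ by 0.65 ± 0.26 (SE, limma, n = 6 against 6, adjusted p = 0.539), or by 0.42 without +/+ female 1, and in the 12 labelled striatum by 0.27 ± 0.14 (adjusted p = 1), or by 0.18 without Δ12/+ male 1. The difference between these 2 effects was 0.37 ± 0.30 (adjusted p = 0.873). Ptgds was at -0.14 ± 0.18 in the former (adjusted p = 0.825) and at -0.31 ± 0.14 in the latter (adjusted p = 1), and Igf2 at -0.47 ± 0.19 (adjusted p = 0.539) and -0.08 ± 0.17 (adjusted p = 1). Of the leptomeningeal list, 14 of 19 were lower in Δ12/+ in the libraries labelled cortex, with a median of -0.14, and 12 of 19 in those labelled striatum, with a median of -0.08.

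None of those markers was called by limma in either fit, and at an unadjusted p under 0.05 3 were lower in the libraries labelled cortex, 2 in those labelled striatum and 0 higher in either. Of all genes, 0.00662% were called higher and 0.0464% lower in the libraries labelled cortex, and 0.00663% higher and 0% lower in those labelled striatum. At an unadjusted p under 0.05, 598 of 15095 genes were higher and 715 lower in the former. In the latter 272 of 15077 were higher and 203 lower. The single gene called in the latter was Pmch, the melanin-concentrating hormone precursor of the lateral hypothalamus, at 4.36 ± 0.42 (limma, adjusted p = 0.00535), named after its value was seen. In the libraries labelled cortex, Xist was above Ddx3y in 5 of 6 labelled +/+ and in 0 of 6 labelled Δ12/+. With that transcript in place of the labelled sex, Dcn differed by 1.79. In that fit the genotypes are compared through 1 library labelled +/+, female 1, the one with the lowest Dcn.

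**Figure D5:**
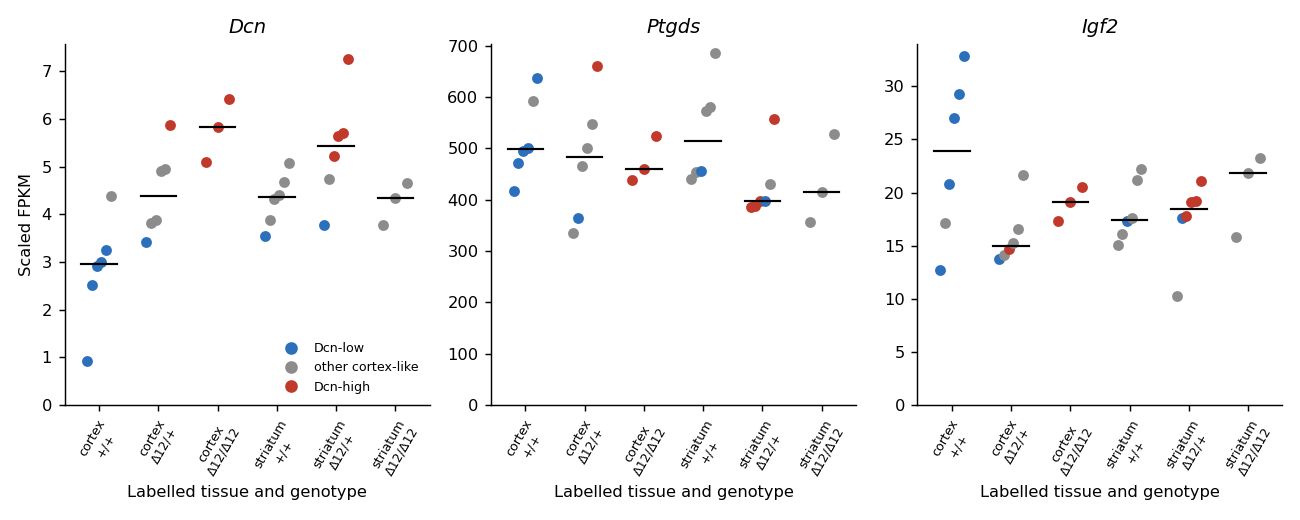
Scaled FPKM (vertical axes, from 0) of Dcn, Ptgds and Igf2 in the 30 cortex-like libraries by labelled tissue and genotype (horizontal axes). Points are libraries coloured by set and bars medians. Dcn is lowest in the libraries labelled cortex +/+, median 2.96. The 3 labelled cortex Δ12/Δ12, at 5.10 to 6.41, lie above those labelled +/+ of either tissue and those labelled striatum Δ12/Δ12. The highest labelled +/+ is close below them, at 5.08. The other pairs of groups overlap.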

How the data were processed

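For each library the authors deposited FPKM values with interval bounds for 47597 entries. The submitters' processing notes name bcl2fastq 2.20, Trimmomatic 0.30, TopHat2 2.0.14, SAMtools 1.3, HTSeq 0.6.1p1 and GRCm38.p4, and the tool that made the FPKM values is not given in the sources used here. Here, 23 entries not marked OK in every library were dropped, values were divided by median-of-ratios factors over the 60 libraries, and log2(scaled FPKM + 0.5) was taken. Fold changes of low genes are therefore understated. Genes needed a mean of at least 0.5 in the libraries compared. Depth is not given; the deposited intervals of 4102 single-transcript genes corresponded to 12.7 to 27.5 M fragments a library, and intervals cover counting error only. Slopes and labelled groups were tested with limma 3.58.1 (R 4.3.3) with a mean-variance trend and Benjamini-Hochberg adjustment over all genes, after a test on simulated data. The labels do not tie replicate numbers to shared animals across genotypes, but number the mice alike in both tissues, and p-values measure only the spread between these samples.

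The members and gene lists were chosen with earlier results of these data known. Genes named are Dcn, Ptgds, Igf2 and members of the lists, not always those with the largest differences. Also named are the 10 largest rises and falls among genes whose 8 and 8 values do not overlap (mean at least 1) and the 15 most like Dcn. Alternatives were other set sizes, scalings, pseudocounts, filters and covariates, and leaving out libraries. Mbp was not analysed here.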

Additional observations from a re-analysis of the deposited data

Results flagged for a closer look

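Of 26 sets of values checked, each of 1 gene in 1 group of libraries, 6 had a library farther from its neighbour than Dixon's 95% critical value, where chance gives about 1 in 20. Among Dcn-low libraries, female 1 of cortex Δ12-line +/+ had a Dcn of 0.922, with the next Dcn-low library at 2.53 (gap of 0.561 of the range). Dcn itself chose that set, so the critical value does not apply to this 1 of the 6, and its gap is a description. The same library also had the fewest entries above 0, and the part of this in its Dcn was not tested. In the Dcn-high set, male 3 of cortex Δ12/+ had an Mgp of 50.5 with the next at 28.8 (gap of 0.674), and female 2 of striatum Δ12/+ a Col1a2 of 4.74 with the next at 3.04 (gap of 0.533). Among those labelled striatum Δ12/+, male 1 had a Ptgds of 557 with the next at 432 (gap of 0.736), and female 1 an Igf2 of 10.3 with the next at 17.6 (gap of 0.675). The library labelled cortex Δ12/+ male 1 had an Igf2 of 21.7 with the next at 16.6 (gap of 0.646).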

How the results depend on the processing

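The Ptgds difference between the sets was 0.02 and ran from -0.07 (4 highest and 4 lowest within each labelled tissue) to 0.19 (FPKM as deposited), and the median of the leptomeningeal list ran from -0.16 to 0.08 for the same 2 settings; both stayed within 1 SD of the libraries under every alternative. With 1 library left out they ranged from -0.05 to 0.09 and from -0.06 to 0.01. The 2 genes higher and 0 lower in every library became 18 and 9 with 6 libraries a set, where fewer libraries must separate. Higher counts were 1 with 10 a set, with FPKM as deposited, within labelled tissues and without cortex Δ12-line +/+ female 1, 4 with upper-quartile scaling and 4 with no filter, and with 1 library left out 2 to 5 higher (5 without striatum Δ12/+ male 3) and 0 to 2 lower (2 without cortex Δ12/+ male 3). The Fisher p for labelled +/+ was 0.0573 with 10 a set and 0.0769 without cortex +/+ female 1 and male 1.

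In the striatum-like libraries the counts of 1 and 0 became 3182 and 89 with FPKM as deposited, where the median slope of all genes rose to 0.19, 99 and 6 with no filter, 4 higher with labelled sex as a covariate, 5 higher at an adjusted p under 0.1 and 0 without the library with the highest Dcn. With FPKM as deposited all 15 leptomeningeal markers tested had a positive slope, with a median of 0.54 against 0.19 over all genes. With no filter 23 of 24 were positive, with a median of 0.43 against -0.004 over all genes. The slope of Igf2 turned to -0.0263 with the Ttr and Slc17a7 covariates. The other cortex-like libraries gave 0 genes in every setting.

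For labelled cortex, the counts of 1 higher and 7 lower became 5 higher with no filter, 4 lower with FPKM as deposited, 0 and 0 with both tissues in one fit, and 1898 and 1169 with the sex-linked transcript as covariate, chosen after seeing the data, where 4 of 19 leptomeningeal markers passed. With 1 library left out they ranged from 1 to 6 and from 3 to 11, most without cortex +/+ female 1. For labelled striatum the 1 higher became 2 with no covariate and 0 with both tissues, and with 1 library left out 1 to 2, while Igf2 ranged from -0.15 to 0.0752, the latter without Δ12/+ female 1. With the replicate block the counts were 0 higher and 1 lower for cortex and 0 and 0 for striatum; same-numbered libraries of 2 genotypes are different mice and their deviations correlated from -0.22 to 0.05, so the numbers do not pair them.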

Other observations

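The 15 genes most like Dcn depended on the library labelled cortex Δ12-line +/+ female 1. Over the other 29 cortex-like libraries the first were Cycs, the cytochrome c gene, at r = 0.70, 1700049G17Rik at 0.68 and Ccnh, a cyclin of the transcription factor TFIIH kinase, at 0.68, while over all 30 Cycs was at 0.21 and Ccnh at -0.05. No gene of the leptomeningeal list was above 0.36 over the 29, where Aldh1a2 and Gjb2 were highest. These are descriptions over libraries that share 1 scaling.

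Entries of different transcript length differed slightly between the sets. The 1100 genes with a longest transcript under 500 bases had a median difference of -0.13, and the 1064 between 500 and 1000 bases one of 0.05. The 803 over 8000 bases had one of 0.01.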
